A study of Ostreococcus tauri with 30 samples.

Results

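The genes described here are 100 genes of the marine green alga Ostreococcus tauri whose transcript share under higher copper, relative to the untreated culture of the same time, was lower at 12 h than at 1 h and 4 h. They were chosen from 7627 genes by measured values. For each gene the count was expressed as CPM, its share of the library's gene counts scaled to 1000000, log2(CPM + 1) was averaged over the 3 libraries of a group, and the difference d of higher copper minus control was taken at 1, 4 and 12 h. Genes with a mean of at least 5 CPM in at least 1 group were kept (6711 genes). Of these, 5778 had d above -0.5 at both 1 h and 4 h. The members are the 100 with the lowest score, the score being d at 12 h minus the smaller of d at 1 h and d at 4 h. Genes of chromosome 19 and those of chromosome 2 up to OT_ostta02g02710 were left out, which removed 10 and 6 genes with scores low enough to be members. Every statement about higher copper against control at 1, 4 or 12 h therefore describes the choice itself and carries no test.

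The study followed liquid cultures of strain RCC745 in 10 groups of 3 libraries. Untreated controls were taken at 0, 1, 4 and 12 h, and cultures given a lower or a higher copper concentration were sampled at 1, 4 and 12 h. The sample labels give 25 and 250 µM copper, while the treatment protocol gives 0.4 and 2 µM, so the doses are called lower and higher copper here. Light and dark alternated every 12 h, the seawater medium held nitrate as a nutrient, and no source used here gives the hour of the cycle at which copper was added. The labels do not say that replicates came from separate cultures, so p-values measure the spread between these libraries, which may be technical. Libraries held 2549094 to 5232257 gene counts (median 4104009). For 28 libraries the deposited KEGG module counts were 9.89 to 12.2 times the gene counts, but the ratio was 6.05 in control replicate 3 at 1 h and 20.1 in control replicate 3 at 4 h. With the gene counts of those 2 libraries exchanged the ratios were 11.03 and 11.01, so the course of the members, the control's change from 4 h to 12 h and the copper differences at 1 h and 4 h are also given without them.

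Copper is a cofactor of plastocyanin in photosynthesis and of cytochrome c oxidase in respiration, and in excess it is toxic through redox cycling and by displacing other metals. O. tauri is a very small, free-living unicellular green alga whose transcripts largely follow the light-dark cycle, so untreated cultures also change within a day. Copper and time are thus both part of every 12 h value. All 100 members matched a locus tag in the RefSeq annotation of O. tauri, and none has a gene symbol or product in the sources used here. Members are named by locus tag only, and no function is given to them.

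A low score could come from a high d early or from a low d at 12 h, and the members held both. The kinds named below sort the values that the choice used and are not a separate result. The median of d over the 100 members was 0.43 at 1 h, 0.26 at 4 h and -0.49 at 12 h, where the medians over the 6711 genes were 0.05, -0.05 and 0.02. Without control replicate 3 at 1 h and at 4 h, the libraries whose module ratio stood apart, the medians at those times were 0.46 and 0.45. These are differences in the share of the library, and in bulk RNA fewer cells with a transcript and less of it per cell cannot be told apart. At 12 h d was below 0 in 89 members and above 0 in 11, and 48 lay below -0.5. Before that, 89 members were above the control at 1 h and 75 at 4 h. With limits of 0.5 set after the values were seen, 41 members were late, meaning d of at most 0.5 at both early times and below -0.5 at 12 h. Another 39 were early, meaning d above 0.5 at 1 h or 4 h with d above -0.5 at 12 h. In 7 members both held, and in 13 neither did. The name late fall thus describes the 41 late members and the 7 with both, whereas the early members were high first and had d from -0.49 to 1.13 at 12 h (median -0.20). Without control replicate 3 at 1 h and 4 h, 38 members were late, 42 early, 10 both and 10 neither, and 37 of the 41 late and 38 of the 39 early members kept their course.

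**Figure D1:**
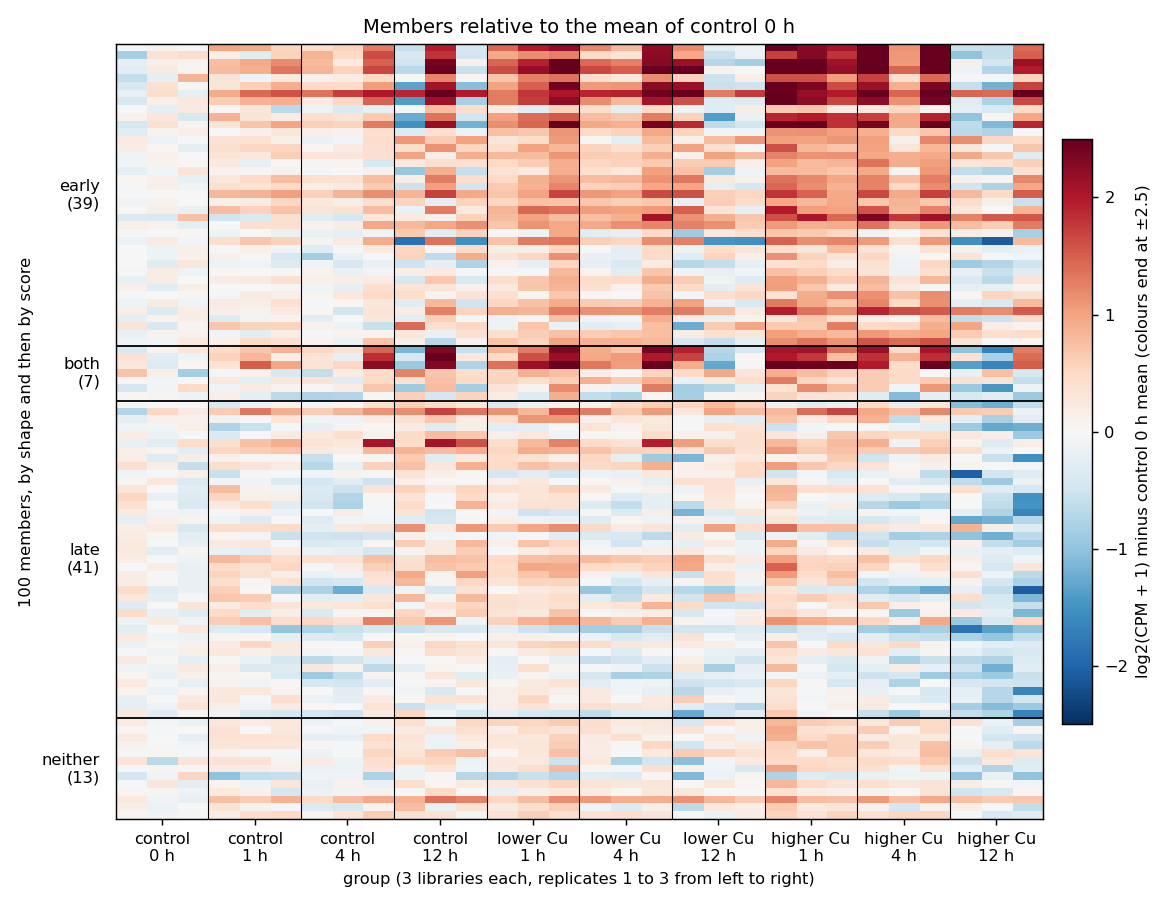
Heat map of the 100 members (vertical axis, grouped into early, both, late and neither and ordered by score) in all 30 libraries (horizontal axis), as log2(CPM + 1) minus the mean of the 3 control 0 h libraries. The early genes are mostly red under higher copper at 1 h and 4 h, from pale to dark, and many are also red in 1 library of each 12 h group. The late genes are lowest in replicates 2 and 3 of higher copper at 12 h, with medians of -0.55 and -0.59. Replicate 1 of that group had -0.21, near -0.20 in control 4 h replicate 1 and -0.21 in higher copper 4 h replicate 2.

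By their definition the late members started near the control, or at most 0.5 above it, and ended below it. Their median d was 0.10 at 1 h (range -0.16 to 0.49), -0.06 at 4 h (range -0.42 to 0.34) and -0.81 at 12 h (range -1.41 to -0.54). In the control the late members were a median 0.43 higher at 12 h than at 4 h, while under higher copper they were 0.36 lower. Under lower copper the same step was -0.003. The control and higher copper libraries entered the score, so the choice itself favours a rise in the control and a fall under higher copper. Without the doubtful control libraries the late members' median d was 0.13 at 1 h and 0.10 at 4 h, so its sign at 4 h rests on control replicate 3, and their control step was 0.49. The early members were defined by other limits on d, so their difference in d follows from the sorting. Their median d was 0.75 at 1 h, 0.68 at 4 h and -0.20 at 12 h, the control changed by 0.08 from 4 h to 12 h, and higher copper changed by -0.70. Without the same libraries their median d was 0.79 at 1 h and 0.81 at 4 h, and the control step was 0.15.

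Over all 100 members the control was higher at 12 h than at 4 h in 72 and higher copper was lower in 96. These libraries entered the score, so the counts and steps of both groups describe the choice and carry no test. The control was higher in 77 without its replicate 3 at 4 h. The median step of the control was 0.27, beside -0.11 over the 6711 genes (0.37 and -0.08 without that library), and that of higher copper was -0.56, beside -0.04. The edgeR fit scales libraries by TMM, which sets them to a common level over most genes. Its log2 fold changes also compare group means of counts, whereas d compares means of log2(CPM + 1). A single high library weighs more in a mean of counts. OT_ostta10g00920 had d of 0.08 at 12 h but -0.27 in the fit. In that fit the control's median step was 0.45 for the members and -0.02 for the 7190 genes tested. Steps are therefore read against the median of all genes on the same scale. In the edgeR fit the median of higher copper against control at 12 h was -0.54 for the members and -0.01 for all genes tested. There 95 members were below the control. The parts of scaling and of averaging in these shifts were not separated.

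Higher copper lay below the control in every pair of libraries at 12 h in 36 members, where 15.7% of the 6711 genes did so. Of these 36, 29 were late, 2 early, 1 of the kind with both and the rest neither. Against lower copper at 12 h the same held in 16 members (6.17% of the 6711 genes), and these 16 were also among the 36. The edgeR test of higher copper against control called 24 members lower at 12 h (6.98% of all genes tested) and 22 of them were late. It called 6 members higher at 1 h (0.417% of all genes) and 7 at 4 h (3.99%). In the authors' deposited table of higher copper against control at 12 h, 18 members were called lower, beside 5.99% of the genes listed. The count against lower copper shares the higher copper libraries at 12 h with the choice, and the other counts use the contrast that chose the members, so nothing is read from them.

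The late member with the lowest score was OT_ostta12g02150. Its control libraries at 12 h held 24.0, 22.0 and 18.9 CPM, those with lower copper 23.1, 27.8 and 23.7 CPM, and those with higher copper 6.95, 6.06 and 9.75 CPM. The 3 higher copper libraries lay below all others of that time, and the other 2 groups overlapped. At 4 h its control libraries held 14.9, 16.2 and 20.6 CPM and the higher copper libraries 22.1, 13.4 and 18.9 CPM, which overlap. Its mean under higher copper went from 18.1 ± 4.42 CPM at 4 h to 7.59 ± 1.92 CPM at 12 h (SD, n = 3), while its mean in the control went from 17.2 ± 2.99 to 21.6 ± 2.56 CPM.

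4 further late members were picked after their values were seen because their higher copper libraries at 12 h lay below the control. OT_ostta09g00450 held 85.8, 60.4 and 82.6 CPM in the control at 12 h, 74.0, 99.9 and 94.4 CPM with lower copper, and 39.4, 30.1 and 31.5 CPM with higher copper. OT_ostta07g04280 held 69.5, 78.5 and 77.5 CPM in the control, 74.5, 73.8 and 82.0 CPM with lower copper, and 27.8, 39.3 and 51.0 CPM with higher copper. In both genes lower copper overlapped the control and only the higher copper libraries were low at that time. OT_ostta06g01100 held 458.6, 443.7 and 479.5 CPM in the control, against 278 ± 62.1 CPM with higher copper and 355 ± 41.8 CPM with lower copper (SD, n = 3). For this gene the lower copper mean lay between the other groups at 12 h. Its control at 0 h was also low, at 257 ± 39.0 CPM, below the higher copper mean at 12 h. OT_ostta18g00710 held 162, 504.5 and 361 CPM in the control, 246, 161 and 157 CPM with lower copper, and 126, 94.5 and 132 CPM with higher copper. Its control libraries were widely spread, also at 4 h with 149, 143 and 495 CPM, where the high value came from the control replicate 3 whose module ratio stood apart.

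Lower copper lay above the control at 1 h and 4 h and below it at 12 h in most members, as higher copper did. The median of lower copper minus control over the 100 members was 0.29 at 1 h, 0.23 at 4 h and -0.19 at 12 h, beside -0.02, -0.13 and -0.09 over the 6711 genes. In the edgeR fit the median at 4 h was 0.36 for lower copper and 0.32 for higher copper, so there lower copper was not the smaller of both. In the same fit lower copper at 12 h had a median of -0.10, beside 0.02 over all genes tested. It was below the control in 65 members, beside 46.4% of all genes. In unscaled CPM, lower copper was above the control in 90 members at 1 h and in 85 at 4 h, and below it in 77 at 12 h. Without control replicate 3 at 1 h and 4 h the medians were 0.28 and 0.34, and 83 and 92 members were above the control. At 12 h lower copper lay between higher copper and control in 66 members. These values share the control libraries with the contrasts that chose the members, so they are set side by side and are not a separate result. In the authors' deposited table of lower copper against control at 12 h no gene was called (0.0% of the genes listed), with a smallest adjusted p of 0.0816. In the edgeR fit 0 members were called in that comparison in either direction (0.0% of all genes), with 0 members higher (2.5% of all genes) and 3 lower (2.21%) at an unadjusted p under 0.05, the latter near the background.

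**Figure D2:**
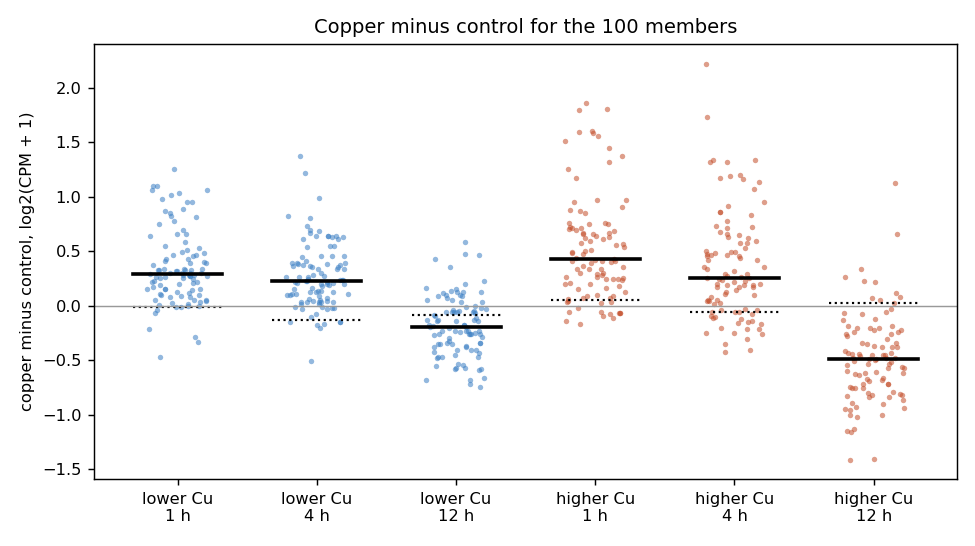
Copper minus control at 1, 4 and 12 h for lower copper (blue) and higher copper (orange), in log2(CPM + 1), with 1 point for each of the 100 members. The solid line is the members' median and the dotted line the median of the 6711 genes that reached 5 CPM. Under higher copper the members' median moves from 0.43 to -0.49, under lower copper from 0.29 to -0.19.

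Lower copper libraries and the control at 0 h did not enter d or the score, so the change among them could be tested. They counted only toward the limit of 5 CPM in at least 1 group. From 4 h to 12 h under lower copper the members' median log2 fold change in the edgeR fit was -0.11, beside 0.04 over all 7190 genes tested. Of the 100 members 58 were lower, beside 43.5% of all genes. The edgeR quasi-likelihood test called 1 member lower (0.0556% of all genes) and 0 higher (0.0% of all genes). At an unadjusted p under 0.05, 5 members were lower (3.06% of all genes) and 3 higher (2.91%), and DESeq2 called 1 lower and 0 higher. The share of all genes called by DESeq2 is not given here or below, so its counts are not read against a background.

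The called member was OT_ostta02g04110, which had 13.5, 13.7 and 13.1 CPM at 4 h and 4.98, 4.36 and 5.86 CPM at 12 h under lower copper. The groups did not overlap, and the gene fell by 1.35 on the log2 scale (SE 0.24, edgeR adjusted p = 0.0207), lower in 3 of 3 libraries. That call was lost when the fit held only the 2 groups compared, and when any 1 of the 6 libraries was left out. Under higher copper the same gene went from 22.9, 20.3 and 23.6 CPM at 4 h to 9.01, 6.96 and 7.26 CPM at 12 h. Its control libraries at 12 h held 7.89, 3.92 and 7.61 CPM, so at that time the higher copper libraries overlapped the control.

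From 1 h to 12 h under lower copper the members' median change was -0.24, beside 0.02 over all genes, and 74 members were lower, beside 47.3% of all genes. The edgeR test called 0 members in either direction (0.0% of all genes). At an unadjusted p under 0.05, 15 members were lower (3.98% of all genes) and 3 higher (4.77%), and DESeq2 called 1 lower and 1 higher. OT_ostta12g02150, the leading late member, was 0.95 higher at 12 h than at 1 h under lower copper (SE 0.21, edgeR adjusted p = 0.0743) and 0.32 higher than at 4 h (SE 0.20, edgeR adjusted p = 0.942), neither past the threshold.

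Against the control at 0 h, lower copper at 12 h was higher, with a median of 0.39 over the members and -0.01 over all genes. The edgeR test called 13 members higher (6.22% of all genes) and 0 lower (3.87%). At an unadjusted p under 0.05, 26 members were higher (14.5% of all genes) and 0 lower (10.2%). DESeq2 called 16 higher and 0 lower, again without a share over all genes to set beside them. Of the 13, 8 were early, 3 late and 2 neither. This comparison joins copper with 12 h of culture, and those cannot be told apart in it.

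The 13 that rose between these groups, of which a few were picked for naming after their values were seen, ran from OT_ostta01g04490, higher by 0.53 on the log2 scale (SE 0.17, edgeR adjusted p = 0.0423), to OT_ostta08g04240, higher by 2.52 (SE 0.45, edgeR adjusted p = 0.0015). OT_ostta08g04240 had 6.01, 9.68 and 5.65 CPM in the control at 0 h and 58.5, 18.4 and 25.7 CPM with lower copper at 12 h. The untreated cultures at 12 h, at 28.8, 47.9 and 30.2 CPM, were high as well. OT_ostta12g02150 was among the 13, higher by 0.90 (SE 0.20, edgeR adjusted p = 0.0081), and so was OT_ostta06g01100, higher by 0.69 (SE 0.20, edgeR adjusted p = 0.0314). The count went down to 4 without control 0 h replicate 3 and to 6 without control 0 h replicate 1, lower copper 12 h replicate 1 or lower copper 12 h replicate 2, and it was 0 when the fit held only the 2 groups compared.

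Many of the lowest scores belonged to a block of genes on chromosome 10. That chromosome held 19 of the 100 members and 5.06% of the genes that could have been chosen, and 11 of the 14 genes from OT_ostta10g00890 to OT_ostta10g01020 were members, with 7 in a row from OT_ostta10g00910 to OT_ostta10g00970. Of the 11, 8 were early and 3 of the kind with both. The run was picked after its values were seen. Gene order follows the locus tags, and no coordinates are printed, since no source used here names the genome build of the counts. The 3 other genes of the stretch are OT_ostta10g00980, which missed the choice with a score of -0.58, OT_ostta10g00900, whose d at 12 h was 1.03, and OT_ostta10g01010, which did not reach 5 CPM. Over all chromosomes, 20 members stood directly next to another member, in 7 unbroken rows. The stretch above gave a row of 7 and a row of 2 (OT_ostta10g00990 and OT_ostta10g01000). Its members OT_ostta10g00890 and OT_ostta10g01020 were not directly next to a member.

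**Figure D3:**
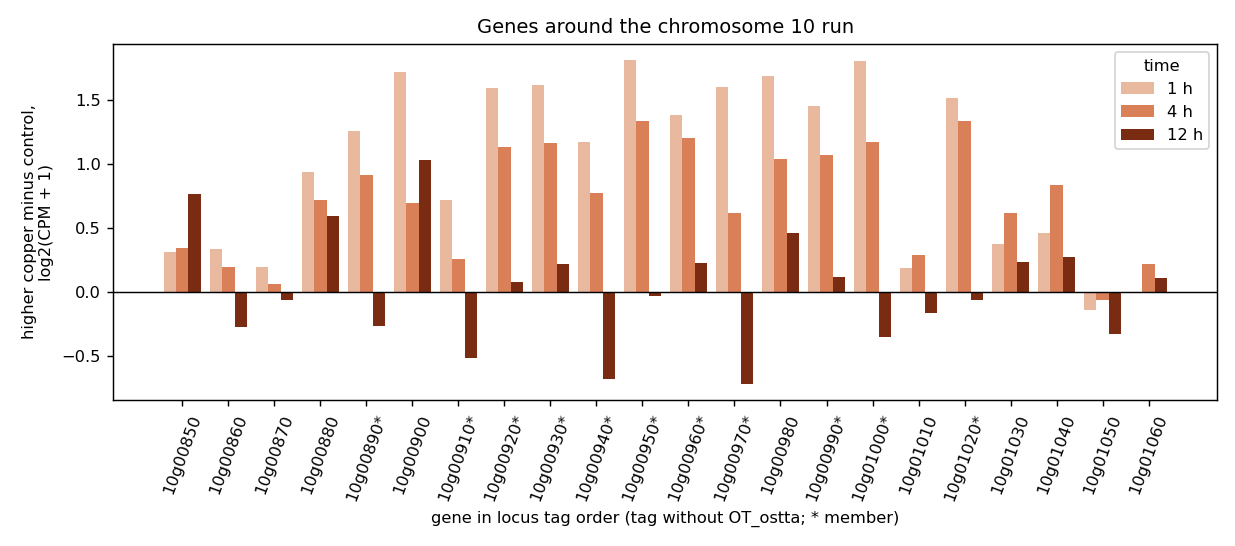
Higher copper minus control at 1, 4 and 12 h, in log2(CPM + 1), for the genes around the chromosome 10 run in locus tag order, with members marked by an asterisk. Within the run the bars at 1 h reach up to 1.81, and at 12 h they lie on both sides of 0.

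In these chromosome 10 genes single libraries set the 12 h values. OT_ostta10g00950, the member with the highest mean CPM, had 251, 2199 and 270 CPM in the control at 12 h, 2388, 427 and 394 CPM with lower copper, and 368, 240 and 1585 CPM with higher copper. Each group held 1 high library and 2 low ones, and the 3 groups overlapped. At 1 h it had 691, 739 and 1012 CPM in the control, 1240, 1834 and 3087 CPM with lower copper, and 3719, 3256 and 1833 CPM with higher copper. There the copper libraries were all above the control. The control library at 1012 CPM is replicate 3, whose module ratio stood apart. With the 2 labels exchanged that library would hold 1276 CPM, above the lower copper library at 1240 CPM. At 4 h the control held 716, 594 and 1276 CPM, lower copper 1276, 1148 and 2936 CPM, and higher copper 2817, 1089 and 2851 CPM.

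The same libraries were high in the other genes of the run. Averaged over its 11 members, the level relative to the control at 0 h was -0.91, 1.91 and -0.60 in the 3 control libraries at 12 h, on the log2 scale. It was 1.32, -0.66 and -0.26 with lower copper and -0.62, -0.88 and 1.37 with higher copper at that time. At 1 h under higher copper it was 2.18, 2.21 and 1.71, above all 3 control libraries of that time (0.44, 0.57 and 0.75). The mean of d at 12 h over the run was -0.18. Leaving out control 12 h replicate 2 gave 0.71, leaving out higher copper 12 h replicate 3 gave -0.89, and leaving out both gave 0.002. Without control 12 h replicate 2 only 2 of the 11 would have been chosen, and without higher copper 12 h replicate 3 all 11 would. All 11 were also chosen without the 2 control libraries whose module ratio stood apart. The median within-group SD was 0.97 for the run, 0.33 for the 100 members, 0.29 for the late members and 0.26 for the 6711 genes.

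The gene with the lowest score of all, OT_ostta03g00910, lies on chromosome 3 and had the same library pattern. It held 6.37, 41.6 and 7.04 CPM in the control at 12 h, 6.43, 6.29 and 28.3 CPM with higher copper at 12 h, and 74.6, 52.1 and 44.7 CPM with higher copper at 1 h. Again 1 control library and 1 higher copper library at 12 h were far above the rest, and the groups overlapped. Over the 12 libraries that did not enter the score, the genes most like it were OT_ostta10g00960, OT_ostta10g00970 and OT_ostta10g00950. Pearson's r was 0.973, 0.954 and 0.953, as a description over libraries that share their groups. For OT_ostta10g01000 they were OT_ostta06g03640, OT_ostta08g00940 and OT_ostta10g00930 (0.951, 0.929 and 0.908). For OT_ostta10g00940 they were OT_ostta10g00930, OT_ostta10g00920 and OT_ostta06g03640 (0.990, 0.986 and 0.974). OT_ostta06g03640 and OT_ostta08g00940 are not members.

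Measured as deviations from group means over the 30 libraries, 12 of the 89 members outside the run had a correlation with it above 0.8, beside 0.94% of the other 6700 genes. These deviations include libraries that chose the members, so the count is a description. The 12 included 3 neighbours on chromosome 15, OT_ostta15g01690, OT_ostta15g01700 and OT_ostta15g01710. OT_ostta15g01710 held 454, 767 and 524 CPM in the control at 12 h and 362, 341.5 and 581 CPM with higher copper. The high libraries were the same ones, at a smaller size, and the groups overlapped. Its libraries with higher copper at 1 h, at 1260, 1269 and 1177 CPM, were all above the control of that time, at 585.5, 629 and 707 CPM.

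The deposited module table showed the same libraries. In green algae nitrate is taken up and reduced to ammonium by nitrate and nitrite reductase, and in O. tauri genes of this pathway are known to lie together on chromosome 10, but the files do not say which locus tags they are. The KEGG module of assimilatory nitrate reduction (M00531) was chosen after its values were seen. It held 1450, 16600 and 1689 counts per 1000000 module counts in the control at 12 h. It held 16780, 2444 and 2453 with lower copper and 2409, 1663 and 13210 with higher copper at that time. At 1 h it held 22870, 19950 and 11850 with higher copper and 4783, 5982 and 8404 in the control. The high and low libraries of the module were thus those of the run at 12 h. The part of nitrogen supply in these values was not tested.

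**Figure D4:**
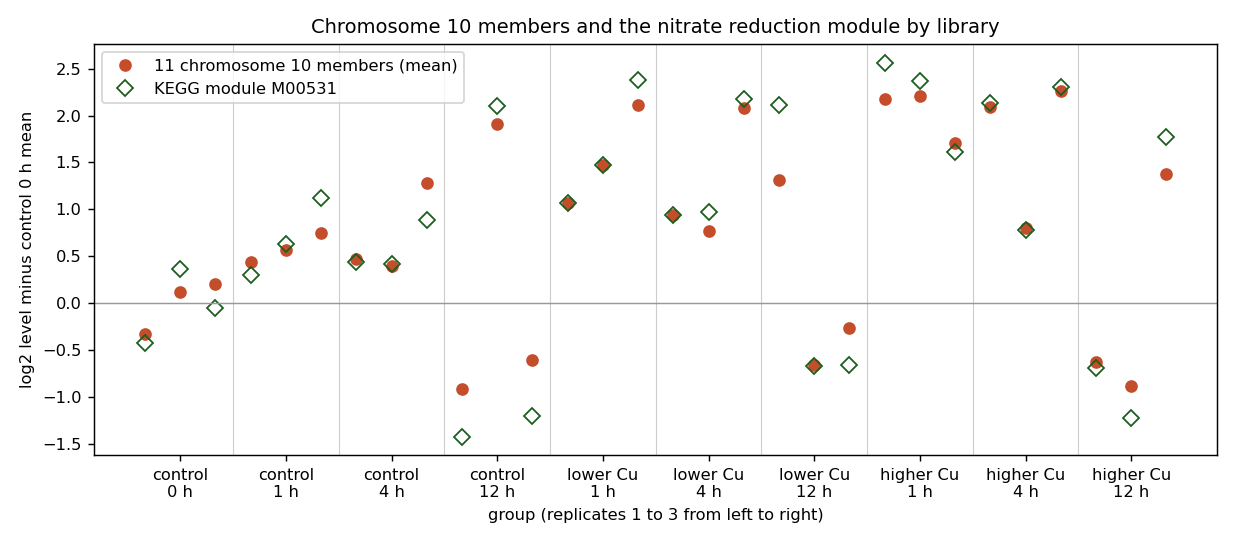
Mean level of the 11 chromosome 10 members (filled circles) and of the KEGG module of assimilatory nitrate reduction (open diamonds) in each of the 30 libraries, as log2 differences from the mean of the control at 0 h. Both are high in 1 of 3 libraries of each 12 h group and in all 3 libraries of higher copper at 1 h.

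Some early members stayed above the control at 12 h and were chosen because they had been higher still. OT_ostta18g00970, picked after its values were seen, had d of 1.86 at 1 h, 2.22 at 4 h and 1.13 at 12 h. Its higher copper libraries held 11.2, 7.14 and 9.36 CPM at 4 h and 4.63, 5.84 and 5.92 CPM at 12 h, while the control held 0.96, 0.77 and 1.91 CPM and 1.82, 1.57 and 2.54 CPM. Higher copper lay above the control in every library at both times. OT_ostta03g01790 had 23.9, 22.2 and 28.5 CPM with higher copper at 12 h and 10.6, 23.5 and 14.1 CPM in the control, which overlap, and d of 0.66. It was among the 13 members called higher in lower copper at 12 h than in the control at 0 h, by 1.15 on the log2 scale (SE 0.33, edgeR adjusted p = 0.025).

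The other members among the 10 lowest scores mixed both courses. OT_ostta01g04690 had 1.21, 18.1 and 2.54 CPM in the control at 12 h and 2.83, 0.67 and 6.69 CPM with higher copper, so 1 control library set its mean. OT_ostta10g01020, OT_ostta10g00970 and OT_ostta10g00890 belong to the chromosome 10 run, and their d at 1 h was 1.51, 1.60 and 1.26. OT_ostta10g01650 is a late member of the same chromosome outside the run. It had 6.67, 10.2 and 7.61 CPM in the control at 12 h and 4.38, 4.27 and 2.10 CPM with higher copper, which do not overlap.

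Among the members with the highest mean CPM, OT_ostta04g00090 took the opposite side in the libraries where the run was high. It held 1109, 646 and 1127 CPM in the control at 12 h, 659, 1157 and 1041 CPM with lower copper, and 1058, 834 and 512 CPM with higher copper. In each of the 3 groups the lowest library was the one with the highest level of the run. Its libraries at 1 h with higher copper, at 1476, 1334 and 1486 CPM, were all above the control of that time, at 829, 864 and 1088 CPM. OT_ostta10g00920 and OT_ostta10g00930, the remaining members of this rank, belong to the run. Over all 89 members outside the run, 36 had a correlation below 0 with it (40.5%, beside 48.9% of the other genes).

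**Figure D5:**
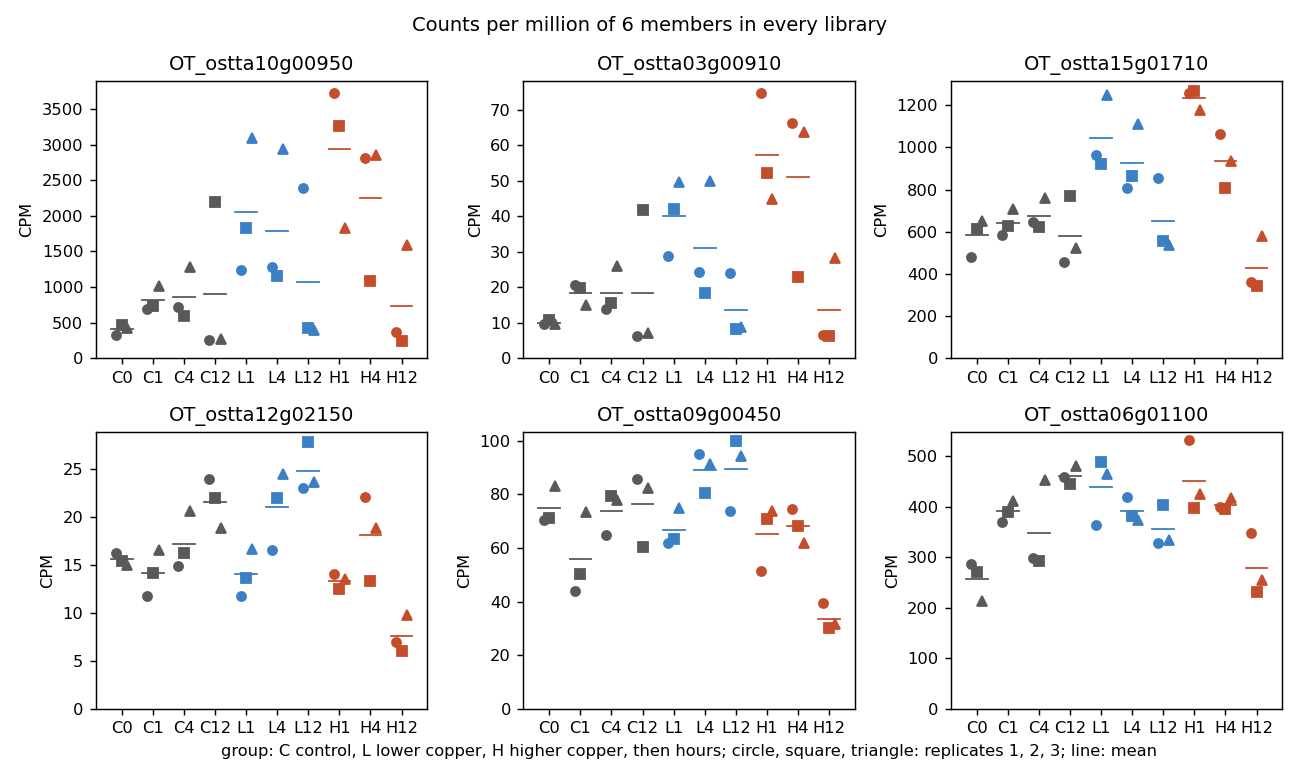
CPM of 6 members in each of the 30 libraries, with group means as lines and linear axes from 0. The upper genes (OT_ostta10g00950, OT_ostta03g00910 and OT_ostta15g01710) are high at 1 h and 4 h under higher copper and split at 12 h. Of the lower genes, OT_ostta12g02150 and OT_ostta09g00450 have their lowest values in the 3 higher copper libraries at 12 h. OT_ostta06g01100 is low there and also in the control at 0 h.

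The limit of 100 cut through a continuous range. The scores ran from -1.55 to -0.60. The last members were OT_ostta09g00490 (score -0.60, d at 12 h -0.63) and OT_ostta05g03200 (score -0.60, d at 4 h -0.40), and the first genes outside were OT_ostta03g01890 (score -0.59, d at 12 h -0.54) and OT_ostta05g02430 (score -0.59, d at 12 h -0.02). Low counts limit some members, as 19 had a mean under 10 CPM over all libraries. Leaving out 1 library of the 18 used in the choice kept between 53 and 95 of the 100 genes, namely 53 when control 12 h replicate 2 was out, 62 for higher copper 12 h replicate 3 and 63 for higher copper 12 h replicate 1. Without control 12 h replicate 2, 25 of the 41 late and 19 of the 39 early members were kept. Without higher copper 12 h replicate 3 it was 21 of the late and 32 of the early members. A set of 16 genes was kept whichever 1 of the 18 libraries was left out. It held 8 late members, among them OT_ostta12g02150, OT_ostta09g00450 and OT_ostta06g01100, and 7 early ones, among them OT_ostta03g00910, OT_ostta10g01000 and OT_ostta10g00890.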

How the data were processed

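RNA was measured in 30 libraries of polyadenylated RNA, made with a stranded kit per the labels' protocols. No source used here names the aligner, counter, strand setting or genome build, so overlapping genes and near-identical copies carry an uncertainty that was not assessed. The deposited gene table holds counts per gene for 7627 genes; a line without a gene name (0.000377% of all counts) was left out. KEGG module counts come from another deposited table. The authors' deposited comparison tables give log2 fold changes and adjusted p-values, and the submitters' processing notes name DESeq2. They were used only to count calls.

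CPM and log2(CPM + 1) were computed with pandas 2.3.3. Tests on gene counts used edgeR 4.0.16 under R 4.3.3: filterByExpr kept 7190 genes and removed 437, TMM scaled the libraries, and a 2-sided quasi-likelihood test ran on 1 fit of 10 group means, with Benjamini-Hochberg adjustment over all genes and a threshold of 0.05. DESeq2 1.42.0, other scalings and filters, the replicate number as a block and leaving out libraries were alternatives. All 100 members passed the filter. The code was tested on simulated data.

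The members and all comparisons were chosen with earlier results of these data known. Genes named in the text are the 10 lowest scores, members called from 4 h to 12 h under lower copper, the 5 highest mean CPM, those next to the limit, neighbours on a chromosome, the 3 genes most like each of the 3 lowest scores, and those said to be picked after their values were seen. Gene lists by product and promoter motifs were planned but not used here, since the sources used hold no products or sequences.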

Additional observations from a re-analysis of the deposited data

How the results depend on the processing

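Choosing the genes again kept 75 to 95 of the 100 under 8 other settings of scaling, pseudocount, minimum CPM, early limit and the doubted control libraries (replicate 3 at 1 h and 4 h), and 61 when the median of 3 libraries replaced the mean. Leaving out 1 library kept 53 to 95, moved the median d at 12 h between -0.58 and -0.41 and the chromosome 10 mean between -0.89 and 0.71. These d values, and those below, were alternatives chosen after seeing the data. The median d was 0.46 at 1 h and 0.45 at 4 h without the doubted control, and 0.44 and 0.35 with the 2 labels exchanged. From 4 h to 12 h under lower copper, the 1 member called lower became 0 with only the groups compared, and 0 to 0 with 1 library left out. From 1 h to 12 h, 1 member was called higher without the doubted controls and by DESeq2, and 1 lower under these settings and with the replicate block, with 0 to 0 when 1 library was left out. Against the control at 0 h, 13 became 0 with only the groups compared, 4 to 19 with 1 library left out, and 13 to 16 under the other 5 settings. Shares over all genes under these settings are not given, so the counts show only how the number of members called moved. The main fit did not use replicate numbers as pairs. Correlations of deviations of same-numbered libraries were 0.34, 0.04 and 0.65 between lower copper at 12 h and 4 h. They were -0.48, -0.02 and 0.29 between 12 h and 1 h, and 0.34, 0.04 and 0.63 between lower copper at 12 h and the control at 0 h. Not every pair passed 0.1, and these values do not settle whether same-numbered libraries are related. With the replicate block the calls were 0 higher and 1 lower from 4 h, 0 and 1 from 1 h, and 15 and 0 against the control at 0 h. The cause of these changes was not tested. The 19 members under 10 CPM rest on few counts.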
